A study of Homo sapiens with 2 samples.

Results

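The collagen chain genes were examined on both arrays of a comparison in MDA-MB-231, a widely used human breast cancer line that lacks hormone receptors and looks mesenchymal. Members were the genes whose symbol has the form COL, a number, A and a number, and which had a probe set naming that gene alone. They came to 41 of 22465 genes that had such a probe set, and lay on 48 probe sets. The first group was MDA-MB-231 stably transfected with a pLKO.1-shSREBP vector, which carries a short hairpin RNA against SREBP1, the lipid-synthesis transcription factor encoded by SREBF1. The control was the same line stably transfected with the pLKO.1 vector. Its title also calls it shNC, and whether the control vector held a hairpin cannot be read from the labels. Both were grown in high-glucose DMEM with fetal bovine serum and antibiotics, and no label says whether either was a clone or a pool, or how many cultures were grown. Each group was 1 array, so there was no spread between replicates, no test was possible, and every difference below describes these 2 arrays only.

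Collagens are triple helices of alpha chains in which glycine is the repeating small residue. Fibrillar collagens build the tensile fibrils of connective tissue, type IV collagen forms the sheet-like network of basement membranes, and the remaining families decorate fibrils, form beaded filaments or short-chain lattices, anchor epithelia or span the cell membrane. In carcinomas most fibrillar collagen is made by fibroblasts, and tumour cells add a smaller, mixed set of chains of their own.

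Promoter windows of 3 members are shown as examples, and no difference below rests on them. By the probe set that stood for each gene, COL12A1 had the lowest difference of all collagens and COL5A1 the lowest of the fibrillar ones. COL4A2 shares part of its window with COL4A1. Each window runs 5′ to 3′ on the strand of its gene, from 250 bases before the gene's start to 50 after it. The sequences are from RefSeq, GRCh38.p14. The windows are chr6:75206004-75206303 on the minus strand, chr9:134641553-134641852 on the plus strand and chr13:110307034-110307333 on the plus strand. Capitals mark CCAAT (the CCAAT box), GGGCGG (the GC box), ACGTG (the core bound by hypoxia factors) and TCACNCCAC (a form of the sterol regulatory element), read on both strands.
COL12A1: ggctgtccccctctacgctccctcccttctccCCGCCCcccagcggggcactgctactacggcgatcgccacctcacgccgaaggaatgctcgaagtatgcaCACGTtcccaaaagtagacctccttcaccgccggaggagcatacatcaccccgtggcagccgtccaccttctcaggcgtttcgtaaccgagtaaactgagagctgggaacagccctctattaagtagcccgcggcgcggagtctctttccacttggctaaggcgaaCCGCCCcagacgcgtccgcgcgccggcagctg
COL5A1: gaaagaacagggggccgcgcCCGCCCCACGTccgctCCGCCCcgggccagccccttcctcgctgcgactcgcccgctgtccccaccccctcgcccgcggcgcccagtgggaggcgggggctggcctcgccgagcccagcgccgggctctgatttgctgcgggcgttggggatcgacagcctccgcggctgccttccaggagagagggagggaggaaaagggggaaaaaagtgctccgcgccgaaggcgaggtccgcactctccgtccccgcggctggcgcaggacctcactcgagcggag
COL4A2: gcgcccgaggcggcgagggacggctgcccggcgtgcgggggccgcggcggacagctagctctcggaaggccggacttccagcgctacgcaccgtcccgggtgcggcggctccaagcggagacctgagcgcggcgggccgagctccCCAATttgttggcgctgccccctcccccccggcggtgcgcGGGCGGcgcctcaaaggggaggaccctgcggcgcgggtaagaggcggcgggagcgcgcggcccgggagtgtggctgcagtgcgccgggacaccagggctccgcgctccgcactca
The COL12A1 window held ACGTG at position -148 and GGGCGG at -218 and 19, all on the opposite strand. The COL5A1 window held ACGTG at -224 and GGGCGG at -230 and -214, also on the opposite strand, with the first GGGCGG and the ACGTG directly next to each other. COL4A1 and COL4A2 are transcribed away from each other with 126 bases between their starts, so their windows share 226 bases. The shared CCAAT lies at -105 from COL4A2 and at -26 from COL4A1, and the shared GGGCGG at -65 from COL4A2 and -67 from COL4A1. Of the 41 members, 30 have a window in the table, and COL1A1, COL1A2 and COL8A1 are among those that do not. Of these 30, 21 (70.0%) held GGGCGG in at least 1 window, against 48.3% of 27305 genes. CCAAT was held by 11 members (36.7%), against 39.7% of genes, and ACGTG by 6 (20.0%), against 24.9%. TCACNCCAC was held by 0 members, against 1.39% of genes. These matches describe letters in the windows and show no binding.

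Values are RMA signals in log2 units, 1 per probe set and array, and levels of different genes were set only against a common floor, not ranked against each other. A floor of 3.21 log2 units was set at the 95th percentile of 364 olfactory receptor genes by mean signal, since this line should not express them, and a gene counted as above it when the higher of its values passed. By that criterion 15702 genes were above the floor, as were 27 of the olfactory receptor genes. The SD of the differences was 0.19 log2 units over the genes above the floor and 0.17 over the olfactory receptor genes. SREBF1, the target of the hairpin, read 5.29 on the array labelled knockdown and 5.13 on the control array, so its RNA was not lower there, and directions below refer to the arrays' labels. Differences are the array labelled knockdown minus the control array.

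The collagen genes differed little between the arrays, as did most genes above the floor. Of the 41 members, 32 were above the floor, and 0 of these 32 differed by at least 1.5-fold in either direction. The shares among all genes over that floor were 0.382% at 1.5-fold or more higher and 0.751% at 1.5-fold or more lower. With shares this small, 0 of 32 is near the background and is no trait of the collagens. At a smaller threshold of 0.32 log2 units, 1 member was lower and 0 were higher, against 4.29% of all genes lower and 3.78% higher. That 1 member, COL12A1, makes up 3.12% of the members above the floor, a share near the background. By sign, 16 members were lower on the array labelled knockdown (COL4A5 among them, which was under the floor there), 10 were higher and 6 had the same value on both arrays. Over all genes above the floor, 41.2% were lower, 52.2% higher and 6.63% equal. The median difference was -0.0064 log2 units for the collagens and 0.012 for all genes, and the SD of the differences was 0.12 for the collagens. Subtracting the median difference of all genes, or a curve of the difference on the signal, turned the sign of none of the 26 members with unequal values.

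**Figure D1:**
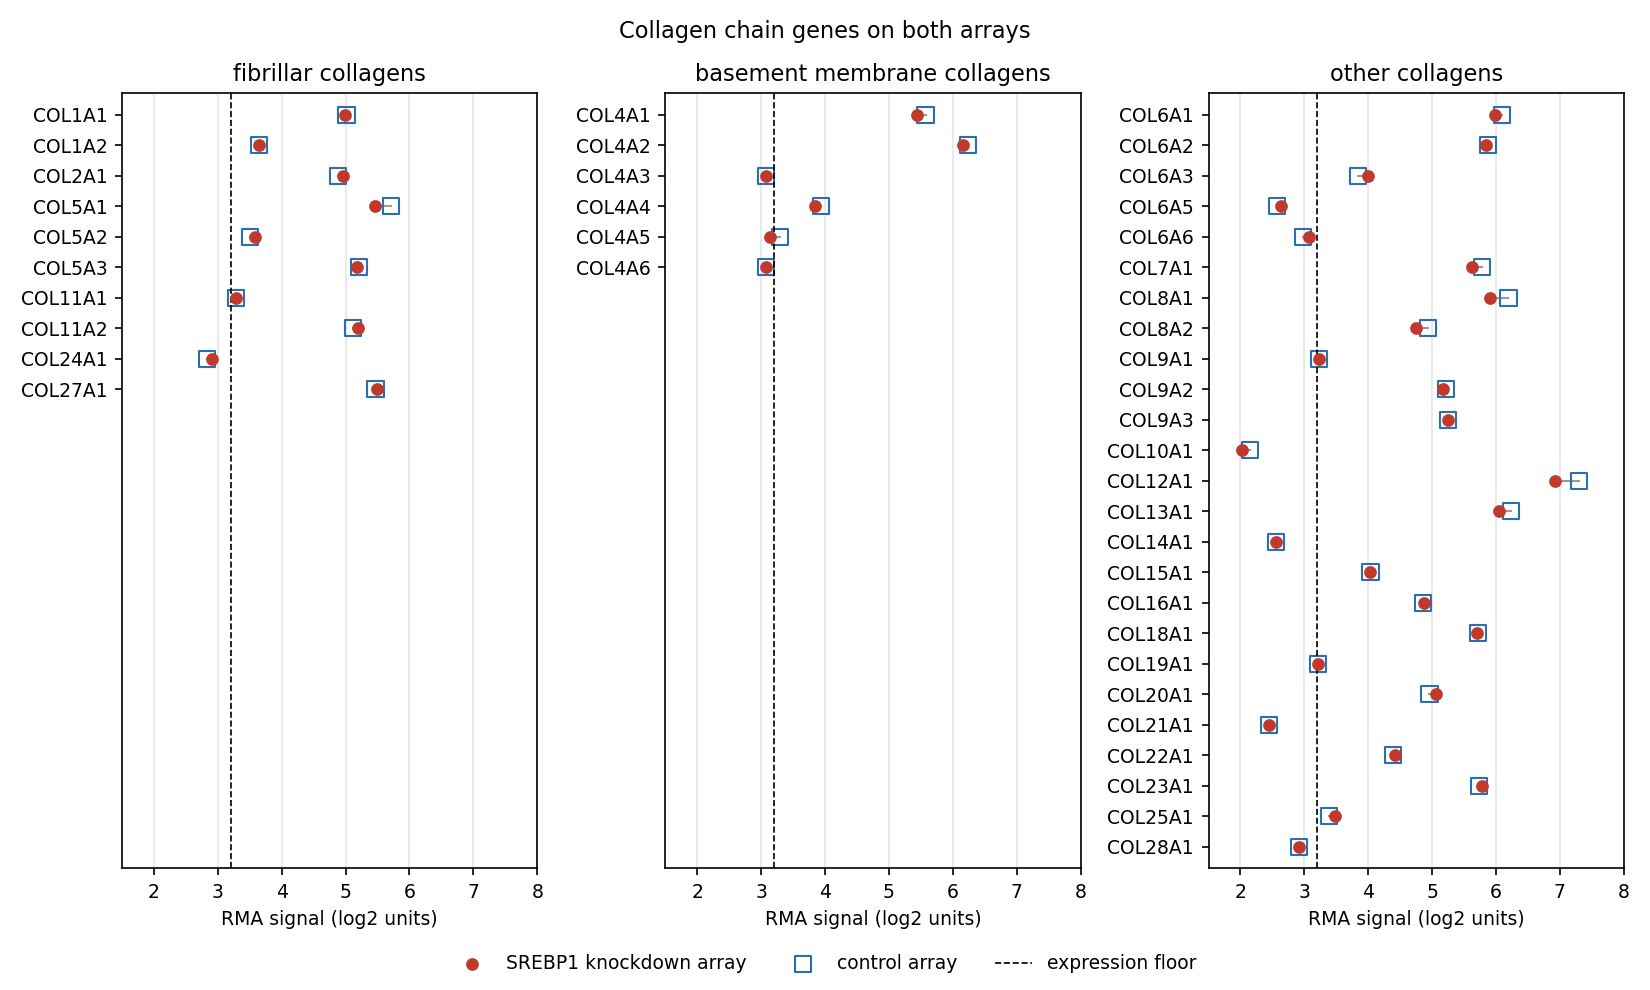
RMA signal in log2 units (horizontal axis) of each of the 41 collagen genes on the array labelled SREBP1 knockdown (red circles) and on the control array (open blue squares), 1 array each, by class, with the expression floor of 3.21 as a dashed line. The symbols of most genes lie on top of each other, and the widest gap is that of COL12A1, at 6.93 on the array labelled knockdown and 7.30 on the control array.

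The fibrillar collagens had 9 of 10 measured members above the floor, with 4 higher, 3 lower and 2 equal and a median difference of 0 log2 units. COL5A1 is a chain of type V collagen, which controls the width of type I fibrils. By the probe set that stood for each gene, COL5A1 had the lowest difference of this class. It read 5.46 log2 units on the array labelled knockdown and 5.70 on the control array, a difference of -0.24 or 1.18-fold lower, and 7.59% of all genes above the floor had a difference as low or lower. A second COL27A1 probe set, not the one that stood for that gene, was lower still, at -0.28. The other type V chains did not follow COL5A1. COL5A2 read 3.59 on the array labelled knockdown and 3.51 on the control array, and COL5A3 read 5.18 and 5.20 in the same order. Type I collagen, the main collagen of bone, tendon and skin, was level between the arrays. COL1A1 read 4.99 log2 units on the array labelled knockdown and 5.01 on the control array, and COL1A2 read 3.65 on both.

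The cartilage chains and the minor fibrillar chains made up the rest of this class. COL2A1, the main collagen of cartilage, read 4.96 log2 units on the array labelled knockdown and 4.88 on the control array. COL11A2, a chain of the cartilage collagen type XI, read 5.19 on the array labelled knockdown and 5.11 on the control array. Its 7 probe sets, 6 of them on alternative haplotypes of the major histocompatibility region, differed by between 0.063 and 0.079 log2 units. Probe sets for copies of 1 gene are not independent, so their agreement is no independent support. COL11A1, the other type XI chain, read 3.28 on both arrays. COL27A1 had 2 probe sets that disagreed: one read 5.50 on the array labelled knockdown and 5.47 on the control array, the other 3.18 and 3.46 in the same order, with the first of these under the floor. With probe sets averaged, COL27A1 was the 1 member whose sign turned, to -0.13 log2 units. COL24A1 was under the floor on both arrays.

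Of the 6 basement membrane collagens, COL4A1, COL4A2 and COL4A4 were above the floor on both arrays and had differences of -0.13, -0.069 and -0.093 log2 units. COL4A5 passed the floor through the control array alone, so that the filter fixed the sign of its difference. The median of the 4 was -0.11 with COL4A5 at its measured difference. None reached 0.32 log2 units, and all 4 differences were smaller than the SD over all genes. COL4A1 and COL4A2 encode the chains of the type IV network found in nearly every basement membrane. COL4A1 read 5.44 log2 units on the array labelled knockdown and 5.57 on the control array, a difference of -0.13. COL4A2 read 6.17 on the array labelled knockdown and 6.24 on the control array, a difference of -0.069. Both genes of this pair, whose promoter windows overlap, were lower, by 1.09-fold and 1.05-fold. Any part of the shared sequence in these differences was not tested.

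The other type IV chains belong to specialised basement membranes such as that of the kidney glomerulus. COL4A4 read 3.85 log2 units on the array labelled knockdown and 3.94 on the control array. COL4A5 read 3.14 on the array labelled knockdown, which is under the floor, and 3.29 on the control array, so that with the floor in place of that value its difference was -0.086. With COL4A5 at that bound, a setting added once the values were known, the median of the 4 chains was -0.089. COL4A3 and COL4A6 were under the floor and read 3.07 on both arrays, a pair of values that they shared with each other and with other genes (4 genes in all).

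**Figure D2:**
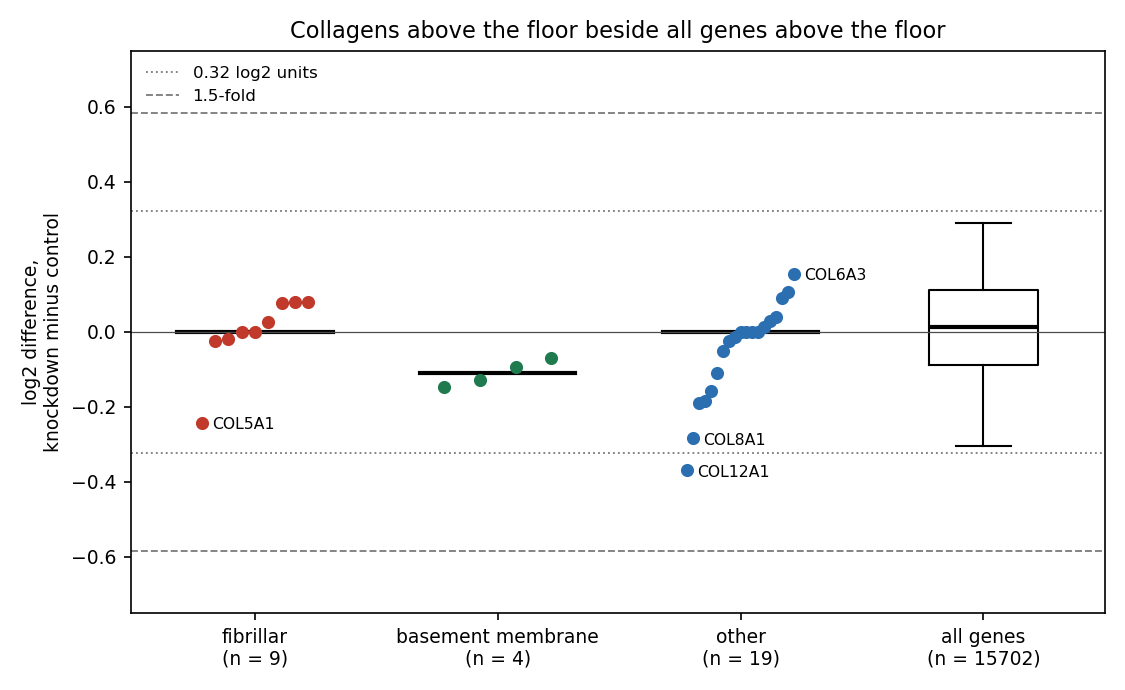
Log2 difference, array labelled knockdown minus control array, of each collagen gene above the floor by class (points, with the class median as a bar), beside all 15702 genes above the floor (box at the quartiles with the median, whiskers at the 5th and 95th percentiles). The dotted and dashed lines mark 0.32 log2 units and 1.5-fold. COL12A1 is the point beyond the dotted line, at -0.37, and the basement membrane chains above the floor on both arrays lie between -0.13 and -0.069. The lowest basement membrane point, COL4A5, is drawn at its measured difference, with its value on the array labelled knockdown under the floor.

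The remaining families had 19 of 25 measured members above the floor, with 9 lower, 6 higher and 4 equal and a median difference of 0 log2 units. Their mean was -0.050. COL12A1, a fibril-associated collagen of the FACIT family that coats type I fibrils, had the lowest difference of all collagens. It read 6.93 log2 units on the array labelled knockdown and 7.30 on the control array, a difference of -0.37 or 1.29-fold lower, and 3.11% of all genes above the floor had a difference as low or lower. The short-chain lattice collagen type VIII came next. COL8A1 read 5.91 log2 units on the array labelled knockdown and 6.20 on the control array, or 1.22-fold lower. COL8A2, its partner chain, read 4.75 on the array labelled knockdown and 4.94 on the control array, or 1.14-fold lower.

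COL13A1, a collagen that spans the cell membrane, read 6.05 log2 units on the array labelled knockdown and 6.24 on the control array, or 1.14-fold lower. COL7A1, which forms the anchoring fibrils beneath stratified epithelia, read 5.62 on the array labelled knockdown and 5.77 on the control array, or 1.12-fold lower. Differences as low or lower were found in 11.4% of all genes for COL13A1 and in 14.5% for COL7A1. The other membrane-spanning chains differed the other way by smaller amounts: COL23A1 read 5.77 on the array labelled knockdown and 5.73 on the control array, and COL25A1 read 3.48 and 3.39 in the same order.

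Type VI collagen, which forms beaded microfilaments around cells, was split between its chains. COL6A1 read 5.98 log2 units on the array labelled knockdown and 6.09 on the control array, a difference of -0.11. COL6A2 read 5.84 on the array labelled knockdown and 5.87 on the control array. COL6A3, the long chain of the same molecule, read 3.996 on the array labelled knockdown and 3.84 on the control array, which at 0.16 log2 units, or 1.11-fold, was the highest difference of any collagen.

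The rest of the FACIT family and the multiplexins, which carry a cleavable carboxyl-terminal domain, were nearly level. COL20A1 read 5.07 log2 units on the array labelled knockdown and 4.96 on the control array, a difference of 0.11. The type IX chains, which decorate cartilage fibrils, were COL9A1 at 3.22 on both arrays, COL9A3 at 5.25 on both, and COL9A2 at 5.17 on the array labelled knockdown and 5.22 on the control array. COL16A1 differed by 0.013, COL22A1 by 0.029 and COL18A1, the source of endostatin, by -0.013 log2 units. COL15A1 read 4.04 and COL19A1 3.21 on both arrays. These FACIT and multiplexin chains other than COL12A1 and COL20A1 thus differed by at most 0.050 log2 units.

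The 9 members under the floor on both arrays were COL24A1, COL4A3, COL4A6, COL6A5, COL6A6, COL10A1, COL14A1, COL21A1 and COL28A1. Their signals lay between 2.02 and 3.07 log2 units and their differences between -0.12 and 0.089. Of all 41 members, 11 (26.8%) had exactly equal values on both arrays, 6 of them above the floor. The 6 were 18.8% of the members above the floor, against 6.63% of all genes above it. The same pair of values as at least 1 other gene was found in 7 members. The share of all genes with a shared pair, or with equal values when no floor is set, was not computed. COL3A1 and COL26A1 lay on probe sets naming several genes and COL17A1 was not analysed here.

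Chains of 1 molecule were set side by side, since many collagens are heterotrimers. The spread between chains, the highest difference minus the lowest, covered 3 chains in types V, VI, IX and XI and 2 in the others. A range over more chains tends to be wider, so these spreads are not like for like. It was widest in type V, at 0.32 log2 units between COL5A2 and COL5A1, and in type VI, at 0.26 between COL6A3 and COL6A1. It was 0.10 in type VIII, 0.079 in type XI with COL2A1, 0.060 between COL4A1 and COL4A2, 0.050 in type IX and 0.024 in type I. In types V and VI the chains lay on both sides of 0. Both type VIII chains and both ubiquitous type IV chains were lower on the array labelled knockdown. Of all these chains only COL5A1 and COL8A1 differed by more than 0.19 log2 units, the SD over all genes above the floor. Whether chains of 1 molecule differ together was not tested.

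**Figure D3:**
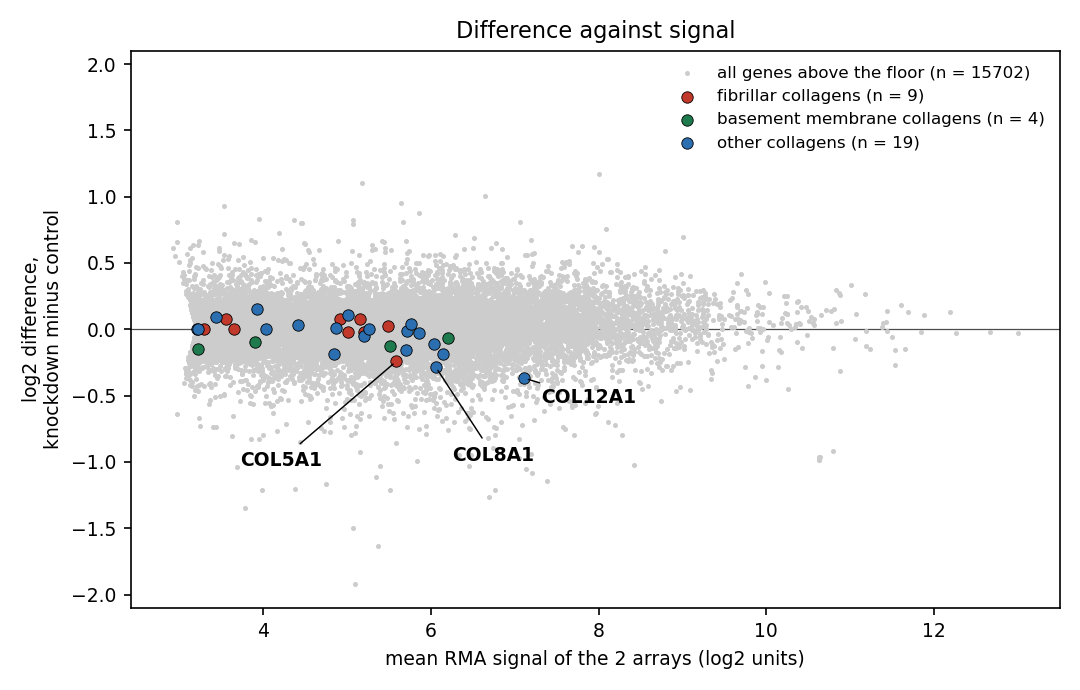
Log2 difference, array labelled knockdown minus control array (vertical axis), against the mean signal of the 2 arrays in log2 units (horizontal axis) for all 15702 genes above the floor (grey) and the 32 collagen genes above the floor, coloured by class. The collagen points lie inside the grey cloud at their own signal, and COL5A1, COL8A1 and COL12A1 are the lowest of them.

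Genes that build, bind and break down collagen were taken from a list of 56 symbols. Of these, 50 were above the floor, 5 were under it and 1, COLGALT2, lay on a probe set naming several genes. As background for each count below, 52.2% of all genes above the floor were higher, 41.2% lower and 6.63% equal. Of the 36 genes of collagen biosynthesis above the floor, 15 were higher, 18 lower and 3 equal, with a median difference of -0.0028 log2 units beside 0.012 for all genes. In this list 2 members were at least 1.5-fold lower, or 5.56%, against 0.751% of all genes, and 0 were at least 1.5-fold higher. Both make lysine crosslinks in the extracellular matrix. The list was chosen with results for LOX known, so its count is no independent support.

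Among the lysyl oxidases, LOX, which starts the covalent crosslinking of collagen and elastin, read 5.16 log2 units on the array labelled knockdown and 6.01 on the control array, or 1.81-fold lower. LOXL4 read 5.78 on the array labelled knockdown and 6.39 on the control array, or 1.52-fold lower. Fewer than 1% of genes, 0.197% and 0.694%, had differences as low as these. LOXL2 and LOXL1 differed by -0.16 and -0.11 log2 units, and LOXL3, the highest of the family, by 0.090. No collagen differed by as much as LOX or LOXL4.

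Modification and folding genes went both ways, 9 higher, 7 lower and 1 equal of 17, with a median of 0.030 log2 units. P4HA1, a catalytic subunit of the prolyl 4-hydroxylase that stabilises the triple helix, was lowest, at 7.59 log2 units on the array labelled knockdown and 7.99 on the control array, or 1.32-fold lower. P4HA2, the alternative catalytic subunit, was 1.18-fold lower, whereas P4HB, the subunit shared by these enzymes, differed by -0.0089 log2 units. PLOD2, a lysyl hydroxylase that prepares crosslink sites, was 1.12-fold lower. SERPINH1, the collagen-specific chaperone of the endoplasmic reticulum, was highest, at 7.34 log2 units on the array labelled knockdown and 7.04 on the control array, or 1.23-fold higher. P3H1 and CRTAP, which form a prolyl 3-hydroxylase complex with PPIB, were 1.16-fold and 1.15-fold higher, and PPIB differed by 0.064 log2 units, a value that turned to -0.0033 after the signal-dependent curve was subtracted. None of these folding genes reached 1.5-fold.

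The secretion genes had 5 of 7 members lower (71.4%), against 41.2% of all genes above the floor. Their median was -0.17 log2 units, against 0.012 for all genes. MIA2 and MIA3, which load bulky procollagen into transport carriers, differed by -0.24 and -0.22, and KLHL12, a ubiquitin ligase adaptor that enlarges those carriers, by -0.20. The coat subunits SEC24D and SEC23A differed by -0.17 and -0.12, and TMEM38B, an endoplasmic reticulum cation channel, was highest at 0.080. All 7 were within 0.32 log2 units. Propeptide processing genes had a median of 0.039 over 7 members, between BMP1, which removes the carboxyl-terminal propeptide, at -0.090 and TLL2 at 0.083.

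Collagen receptors had 4 members higher, ITGA10 among them, and 5 lower of 9, with a median of -0.12 log2 units. At 1.5-fold or more, 1 member (11.1%) was lower, against 0.751% of all genes. That share rests on 1 gene of a list chosen with earlier results of these data known, so it is no independent support. ITGA2, the alpha subunit of a collagen-binding integrin, read 7.22 log2 units on the array labelled knockdown and 7.97 on the control array, or 1.68-fold lower. ITGA1, a second collagen-binding alpha subunit, read 4.72 on the array labelled knockdown and 5.14 on the control array, or 1.34-fold lower. Their shared partner ITGB1 was 1.17-fold lower by the probe set used here, and its other probe sets differed by -0.23 and 0.076 log2 units. DDR1, a collagen-binding tyrosine kinase, was lower in all of its 6 probe sets, by between -0.25 and -0.12 log2 units. All 6 lie on alternative haplotypes of the major histocompatibility region, so their agreement is no independent support. ITGA10 read 3.25 on the array labelled knockdown and 3.11, under the floor, on the control array. It was thus higher by at least 0.046, and its rank in the list is not settled. GP6, the collagen receptor of platelets, had the highest difference among receptors above the floor on both arrays, at 0.12.

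Of the collagen-degrading proteases, 5 of 7 were above the floor, with 3 higher, 1 lower and 1 equal and a median of 0.083 log2 units. MMP1, the interstitial collagenase, was highest, at 6.68 log2 units on the array labelled knockdown and 6.29 on the control array, or 1.31-fold higher. MMP9, a gelatinase that also cuts type IV collagen, read 5.59 on the array labelled knockdown and 5.23 on the control array, or 1.28-fold higher. MMP14, the membrane-bound collagenase, was 1.06-fold higher, and CTSK, a lysosomal collagenase, was lowest at -0.11 log2 units. None reached 1.5-fold.

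**Figure D4:**
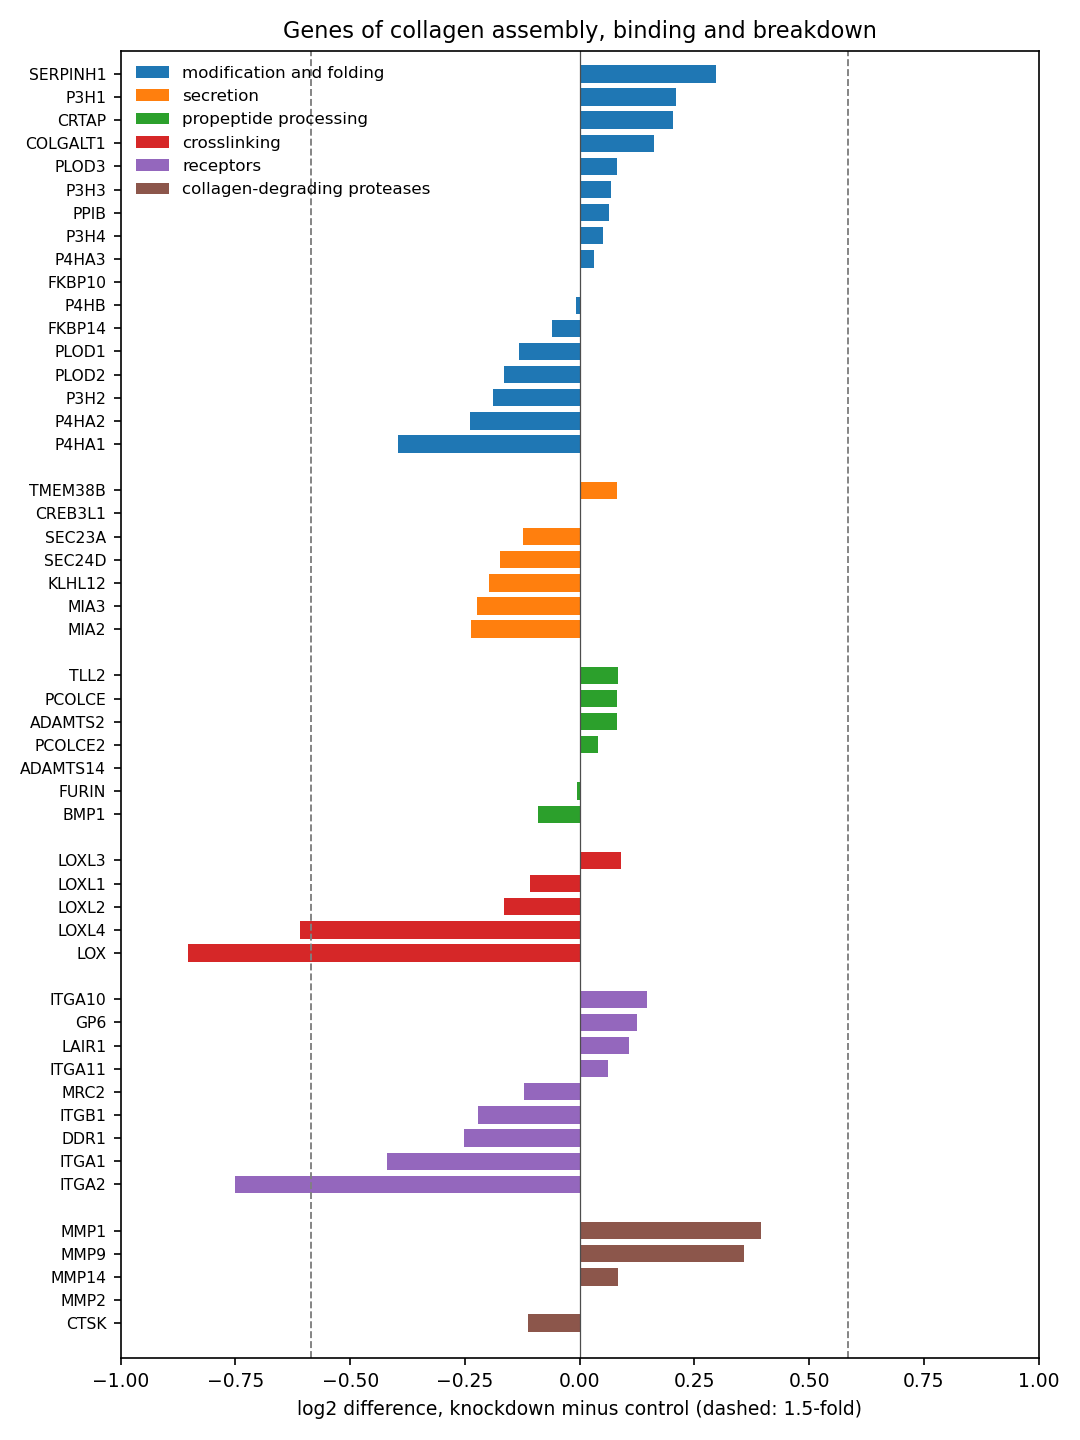
Log2 difference, array labelled knockdown minus control array (bars), of the 50 genes above the floor that modify, secrete, process, crosslink, bind or degrade collagen, by role. LOX, ITGA2 and LOXL4 lie beyond the dashed lines at 1.5-fold, at -0.85, -0.75 and -0.61, and MMP1 and MMP9 are the highest bars at 0.39 and 0.36.

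Markers of the line and of other cell types were read beside these values. VIM and CD44, which MDA-MB-231 is known to express, read 9.74 and 9.17 log2 units on the array labelled knockdown and 9.46 and 9.11 on the control array. ESR1 and PGR were under the floor, CDH1 was close to it at 3.16 on the array labelled knockdown and 3.32 on the control array, and EPCAM read 5.14 on both, so 1 of the 4 genes listed as low in this line was clearly above the floor. Of 8 fibroblast markers, 3 were above the floor (PDGFRB, ACTA2 and THY1), and DCN, LUM, FAP, POSTN and PDGFRA were under it on both arrays. The summed log2 signal of the 8, those under the floor included, was 23.4 on the array labelled knockdown and 23.6 on the control array. PDGFRB read 4.19 on the array labelled knockdown and 4.50 on the control array, and its part in the collagen values was not tested. Of the 3 leukocyte markers measured, PTPRC was under the floor on both arrays, and 2 were above it: CD68, a lysosomal protein found in many cell types, at 8.85 on the array labelled knockdown and 8.64 on the control array, and CD3E at 3.66 and 3.53 in the same order. Their summed log2 signal with PTPRC was 14.6 on the array labelled knockdown and 14.2 on the control array. Of the 4 endothelial markers, PECAM1 was under the floor on both arrays, and 3 were above it: KDR at 3.80 on the array labelled knockdown and 3.69 on the control array, VWF at 3.54 and 3.52, and CDH5 at 3.43 and 3.39 in the same order. The summed log2 signal of the 4 was 13.1 on the array labelled knockdown and 13.3 on the control array. The lower sum came from PECAM1, at 2.38 on the array labelled knockdown and 2.74 on the control array. The 3 markers above the floor were each higher on the array labelled knockdown. The part of these markers in the collagen values was not tested. In bulk RNA, fewer cells making a transcript and less transcript per cell cannot be told apart.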

How the data were processed

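The authors deposited log2 signals, and the submitters' processing notes name RMA and Affymetrix Expression Console as the tools, so normalization between arrays was already done. Tool versions and the build of the array design are not stated. Biotinylated cDNA was made from total RNA with the WT PLUS kit, per the labels' protocols. Of 70523 probe sets, 23781 named 1 gene, 1543 several and 45199 none in the platform annotation, and only the first kind was used. The probe set with the highest mean stood for its gene. All 41 member symbols matched the RefSeq gene table (GRCh38.p14).

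Each gene's difference was described by its size and counts by fold, beside all genes above the floor. Precision is limited by the number of arrays, 1 per group. The named genes were every collagen above the floor and, of each other list, the members beyond 1.5-fold, the highest and the lowest; other pathway genes, and genes named for several probe sets, were added after their values were seen. The members and lists were chosen with earlier results of these data known. Alternatives centred the differences on their median or on a loess curve of the signal (fraction 0.3), averaged probe sets, dropped the floor, raised it by 1 log2 unit, used a threshold of 0.32 log2 units or 2-fold, or set values under the floor to the floor (added after seeing the data). Protein sequences were not used here. Counting and curve fitting were tested on simulated data with large planted shifts and less noise than on these arrays. That checks the code only, not how well small differences can be found here. The tools were statsmodels 0.14.6 for the curve, pandas 2.3.3, numpy 2.4.6 and matplotlib 3.10.9 under Python 3.11.15.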

Additional observations from a re-analysis of the deposited data

How the results depend on the processing

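The count of collagens beyond the threshold was 0 under every alternative that kept 1.5-fold, 0 at 2-fold and 1 (COL12A1) at 0.32 log2 units. Of 41 collagens, 32 were above the floor in the setting reported, 22 with the floor raised by 1 log2 unit and 41 without a floor. Across the alternatives the median difference ran from -0.024 to 0 log2 units for all collagens, from -0.12 to -0.081 for basement membrane chains, from -0.037 to 0 for the other families and from -0.034 to 0 for the biosynthesis genes. For fibrillar chains it ran from -0.019 with the curve subtracted to 0.014 without a floor, so its sign is not settled. With probe sets averaged 1 collagen, COL27A1, turned sign. With the median difference or the curve subtracted 0 turned, and values moved by at most 0.040 log2 units. No paired analysis was possible because each group has 1 array. Signals near the floor have little room to fall further, which limits what can be read for the 9 collagens under it and for COL4A5, COL9A1, COL11A1 and COL19A1 just above it.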

Other observations

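Probe sets named for antisense RNAs and pseudogenes of collagens were not members and are given as values. COL18A1-AS1 read 3.89 log2 units on the array labelled knockdown and 3.69 on the control array, a difference of 0.20, while COL18A1 itself differed by -0.013. COL4A2-AS1 read 3.61 on the array labelled knockdown and 3.70 on the control array, and COL4A2-AS2 read 3.65 and 3.57 in the same order. COL18A1-AS2, COL5A1-AS1 and the pseudogenes COL6A4P1 and COL6A4P2 were under the floor on both arrays, and both pseudogenes had exactly equal values.

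Member genes lie next to each other in 6 places of the RefSeq table with at most 100 kb between them. The pair COL9A1 and COL19A1, 2592 bases apart, had equal values on both arrays in each gene. COL6A1 and COL6A2, 93063 bases apart, differed by -0.11 and -0.025 log2 units. The other 2 head-to-head type IV pairs each had 1 chain under the floor.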
